A study of Mus musculus with 4 samples.

Results

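The genes described here make or remove superoxide and hydrogen peroxide in leukocytes of injured mouse muscle. They are 9 of the 27998 genes in the count tables, chosen by name for what their products do: *Cybb*, *Cyba*, *Ncf1* and *Ncf4* of the phagocyte NADPH oxidase, the superoxide dismutases *Sod1* and *Sod2*, catalase (*Cat*), and the glutathione peroxidases *Gpx1* and *Gpx4*. All 9 were found by symbol in each of the 4 libraries.

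Male mice, 8 to 12 weeks old, had received an injection of cardiotoxin, a toxin of snake venom that destroys muscle fibres, into the tibialis anterior on the front of the shin. Cells carrying the leukocyte surface protein CD45 were enriched with magnetic beads 2 or 4 days post-injury (dpi2 and dpi4) and profiled by 10x Genomics droplet sequencing from the 3′ ends of transcripts. By the study's methods, control mice were Bach1 fl/fl littermates and KO mice were Bach1 fl/fl Lyz2-Cre, so that every animal carried the floxed *Bach1* allele and the groups differed in Cre, which the *Lyz2* promoter drives in monocytes, macrophages and neutrophils. There was 1 library per group (control dpi2, KO dpi2, control dpi4 and KO dpi4), so no spread between animals was measured and no test between groups was possible.

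NADPH oxidase sits in the membranes of phagocytes and passes electrons from NADPH to oxygen, which yields superoxide. Its catalytic core is gp91phox, encoded by *Cybb*, held in the membrane by p22phox, encoded by *Cyba*, and it is switched on when cytosolic subunits such as p47phox (*Ncf1*) and p40phox (*Ncf4*) join it. Superoxide dismutases turn superoxide into hydrogen peroxide, in the cytosol (*Sod1*) and in mitochondria (*Sod2*). Catalase breaks hydrogen peroxide down in peroxisomes, and the selenium-containing glutathione peroxidases reduce it with glutathione, with *Gpx4* acting on lipid peroxides in membranes. BACH1, the protein targeted in the KO mice, is a heme-binding repressor that competes with NRF2 for antioxidant response elements, short sequences near many genes that protect cells from oxidants.

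The promoters of the 3 members that were higher in KO than in control macrophages at both times, with intervals above 1, are printed here because BACH1 binds antioxidant response elements. Each is the 250 bases before a RefSeq transcription start on build GRCm38.p6, on the strand of the gene and from 5′ to 3′. The element was searched on both strands as TGACNNNGC, which reads GCNNNGTCA on the other strand, and a match is in capitals.

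Sod1 (chr16:90220512-90220761, plus strand): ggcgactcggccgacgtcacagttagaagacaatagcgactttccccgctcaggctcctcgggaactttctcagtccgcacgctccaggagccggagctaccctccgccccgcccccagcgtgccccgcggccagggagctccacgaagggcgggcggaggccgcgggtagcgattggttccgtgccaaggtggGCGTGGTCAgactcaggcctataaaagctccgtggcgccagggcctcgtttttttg

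Sod2 (chr17:13007589-13007838, plus strand): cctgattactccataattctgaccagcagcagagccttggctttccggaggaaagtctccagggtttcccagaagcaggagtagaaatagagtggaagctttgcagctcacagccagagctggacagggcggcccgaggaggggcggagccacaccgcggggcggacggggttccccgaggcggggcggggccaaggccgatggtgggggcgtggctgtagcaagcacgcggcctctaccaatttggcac

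Cat (chr2:103485154-103485403, minus strand): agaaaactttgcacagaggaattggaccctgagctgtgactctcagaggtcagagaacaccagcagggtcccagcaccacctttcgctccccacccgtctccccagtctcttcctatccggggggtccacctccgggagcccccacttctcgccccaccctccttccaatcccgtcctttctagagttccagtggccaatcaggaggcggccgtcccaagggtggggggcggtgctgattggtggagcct

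Of these, *Sod1* held a match, 56 bases before the start, and *Sod2* and *Cat* held none in this window. Of the 32851 promoters in the table, 10.2% held the element, and among the 11 promoters of the 8 members with an entry only the one of *Sod1* did. The AP-1 element TGACTCA was in 4.46% of promoters and the Maf recognition element, a longer motif that contains the AP-1 letters, was in 0.134%, and no member's promoter held either. A match describes letters in a window and is not a shown binding site.

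The members lie on 9 chromosomes (GRCm38, GENCODE vM21). *Cybb* is on chromosome X at 9435252-9487771, *Cyba* on chromosome 8 at 122424776-122432930, *Ncf1* on chromosome 5 at 134220053-134229625 and *Ncf4* on chromosome 15 at 78244801-78262580. *Sod1* is on chromosome 16 at 90220754-90226329, *Sod2* on chromosome 17 at 13006846-13040063 and *Cat* on chromosome 2 at 103453849-103485160. *Gpx1* is on chromosome 9 at 108338903-108340343 and *Gpx4* on chromosome 10 at 80047166-80056439. *Cyba*, *Ncf1* and *Sod1* each overlap a gene on the other strand (*Gm20388*, *Gtf2ird2* and *Scaf4*), and whether the counting used the strand is not given in the sources used here.

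The libraries held 4177 to 6602 barcodes and 57010520 to 80228489 UMIs (unique molecular identifiers, each standing for 1 captured RNA molecule), and 3433 to 5721 cells per library passed the filters. Pairs of libraries shared 2 to 14 barcodes. Over all barcodes *Lyz2* was at 9388 and 15845 CPM (UMI counts scaled to 1 common total) in the control libraries and at 17.5 and 21.6 CPM in the libraries labelled KO, at dpi2 and dpi4. *Bach1* was at 189 and 207 CPM in control and at 187 and 217 CPM in KO. The Cre design removes exon 4 of *Bach1*, and counts per gene from 3′ ends cannot show its loss.

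Cells were clustered without the members or the other genes of their pathway, and 26 of 28 clusters were named from fixed markers. Macrophages numbered 1838, 1059, 2928 and 2504 in control dpi2, KO dpi2, control dpi4 and KO dpi4, the order in which 4 values are given throughout. Monocytes numbered 2592, 979, 54 and 68, neutrophils 631, 802, 128 and 36, dendritic cells 317, 239, 347 and 383, and T or NK cells 102, 36, 78 and 132. The values of monocytes and neutrophils at dpi4, and of T or NK cells, therefore rest on few cells. With each library clustered by itself, monocytes at dpi4 numbered 1051 in control and 614 in KO and macrophages 1652 and 1917, so where monocytes end and macrophages begin at dpi4 depended on the clustering. Plasmacytoid dendritic cells, 7 to 25 per library, and B cells, 6 to 15 per library, were too few to join the comparisons of these 5 types. The names mean macrophage-like and so on, since they rest on markers and not on an annotation by the study. A level is the summed UMIs of a gene over the cells of a type in 1 library, scaled by the UMI total of that type and given as CPM. All intervals are exact 95% intervals and cover counting error only. Levels are compared for a single gene between types and libraries, never between genes.

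The oxidase genes divided by leukocyte type among these 5. The membrane subunit *Cybb* was highest in monocytes in 4 of 4 libraries and low in neutrophils, whereas the cytosolic subunits *Ncf1* and *Ncf4* were highest in neutrophils in 4 of 4. *Cyba* was high in every myeloid type. Of the genes that remove peroxide, *Cat* and *Gpx4* were highest in macrophages in 4 of 4 libraries, and *Gpx1* was high in every myeloid type and lowest in T or NK cells in 4 of 4. These highest and lowest types were the same with each library clustered by itself.

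*Cybb* in monocytes was at 1083, 707, 1486 and 1421 CPM. In macrophages it was at 387, 335, 1067 and 866 CPM, and in dendritic cells at 480, 301, 766 and 632 CPM. The monocyte interval lay above that of the other 4 types in each library, and the types between differed in order with the library: dendritic cells were above macrophages in control dpi2 and below them in the other 3. In neutrophils *Cybb* was at 121, 44.0, 108 and 69.2 CPM, and in T or NK cells, which are not phagocytes, at 40.7, 0, 40.2 and 76.3 CPM. At KO dpi4 the neutrophil and T or NK cell intervals overlapped. After each cell was thinned to 2000 UMIs, *Cybb* was found in 12.7%, 5.07%, 11.8% and 12.5% of neutrophils and in 1.0%, 0%, 4.11% and 7.03% of T or NK cells. The part of free RNA in the droplets in these shares was not tested. Without thinning these shares were 13.8%, 7.73%, 14.8% and 11.1% of neutrophils, of a median depth of 2308 to 3425 UMIs, and 3.92%, 0%, 14.1% and 10.6% of T or NK cells, of a median depth of 3951 to 4948.5 UMIs. The 0% at KO dpi2 rests on 36 cells and has an upper limit of 9.74%. Thinning left out 167, 53, 9 and 4 neutrophils and 2, 0, 5 and 4 T or NK cells that were shallower. The few plasmacytoid dendritic cells were at 1176, 1207, 1756 and 1436 CPM of *Cybb*, with an interval of 906 to 1502 in control dpi2. Dendritic cells were mixed in *Cybb*: the cluster led by *Xcr1*, *Clec9a* and *Gpr171* was at 15.1 CPM in control dpi2, 43.5 in control dpi4 and 48.9 in KO dpi4, and the cluster led by *Cd209a*, *Klrd1* and *Retnla* was at 573, 1020 and 882 CPM in those libraries.

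*Cyba* differed far less between types. It was at 1299, 1422, 1728 and 1708 CPM in macrophages, at 1409, 1419, 1470 and 1424 in monocytes and at 1274, 1259, 1225 and 1175 in dendritic cells. Neutrophils were at 897, 916, 995 and 1217 CPM and T or NK cells at 625, 596, 719 and 644, which was the lowest type in each library. Within macrophages at control dpi4 it ranged from 1036 CPM in the cluster led by *Vcam1*, *Sepp1* and *Slc40a1* to 2722 in the one led by *Mmp12*, *Mt3* and *Ctsk*.

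*Ncf1* set neutrophils apart from the other 4 of these types. Neutrophils were at 984, 597, 912 and 890 CPM, whereas macrophages were at 154, 160, 178 and 184, monocytes at 159, 152, 164 and 130 and dendritic cells at 132, 132, 220 and 185. T or NK cells were at 8.57, 0, 24.9 and 12.5 CPM, and the 0 there is 0 of 184428 UMIs, which allows up to 3 counts. The few plasmacytoid dendritic cells were at 845, 753, 927 and 733 CPM of *Ncf1*, with intervals that overlapped those of neutrophils in each library. After thinning to 2000 UMIs, *Ncf1* was found in 76.9%, 58.9%, 77.3% and 71.9% of neutrophils and in at most 4.11% of T or NK cells. Without thinning the shares were 77.8%, 75.3%, 84.4% and 77.8% of neutrophils and at most 12.8% of T or NK cells, so the share at KO dpi2 was the lowest in both counts and the gap was wider at matched depth. The other cytosolic subunit, *Ncf4*, was at 291, 307, 253 and 277 CPM in neutrophils and at 153, 175, 181 and 140 in monocytes. Neutrophils were above monocytes with intervals apart in 3 libraries, and at control dpi4 the intervals overlapped. Macrophages were lowest in *Ncf4* in 3 libraries, at 48.3, 62.5 and 84.3 CPM in control dpi2, KO dpi2 and KO dpi4, though their interval overlapped that of T or NK cells in both KO libraries, and at control dpi4 they were at 118 CPM.

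*Sod1* ranged from 43.4 to 208 CPM over the 20 values of types and libraries. Each end rests on 36 cells: 8 UMIs in T or NK cells at KO dpi2 and 21 UMIs in neutrophils at KO dpi4. Dendritic cells were the highest type in 3 libraries, at 152, 182 and 158 CPM in control dpi2, KO dpi2 and control dpi4, and at control dpi4 their interval overlapped that of macrophages. With each library clustered by itself, macrophages were the highest type in *Sod1* at dpi4, at 152 CPM in control and 200 in KO. *Sod2*, the mitochondrial enzyme, was highest in monocytes in 3 libraries and in neutrophils in control dpi2. Monocytes were at 185, 307, 241 and 263 CPM and neutrophils at 212, 253, 167 and 148, and KO dpi2 was the one library in which the intervals of these types did not overlap. With each library clustered by itself, the larger monocyte class of dpi4 was at 81.9 CPM of *Sod2* in control and 93.2 in KO, and neutrophils were highest in both. Dendritic cells were at 95.4, 122, 71.8 and 67.1 CPM and T or NK cells at 85.7, 97.6, 59.3 and 62.5, with overlapping intervals in each library.

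*Cat* was at 52.3, 86.2, 93.0 and 147 CPM in macrophages. Monocytes were at 30.1, 34.6, 41.3 and 69.9 and dendritic cells at 34.4, 36.4, 50.2 and 57.8, with overlapping intervals for the pair in each library. Neutrophils held 5, 32, 11 and 2 UMIs, or 3.26, 11.0, 29.6 and 19.8 CPM, and T or NK cells were at 21.4, 43.4, 28.7 and 38.8 CPM. Neutrophils were lowest in 3 libraries, with an interval apart from the next type at dpi2 only. The macrophage interval was apart from the next type except at KO dpi2, where T or NK cells were at 43.4 CPM from 8 UMIs. *Gpx4* in macrophages was at 413, 376, 437 and 433 CPM, and at dpi4 its interval overlapped that of neutrophils in both libraries. *Gpx1* was between 658 and 1336 CPM in the myeloid types and between 161 and 283 CPM in T or NK cells.

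**Figure D1:**
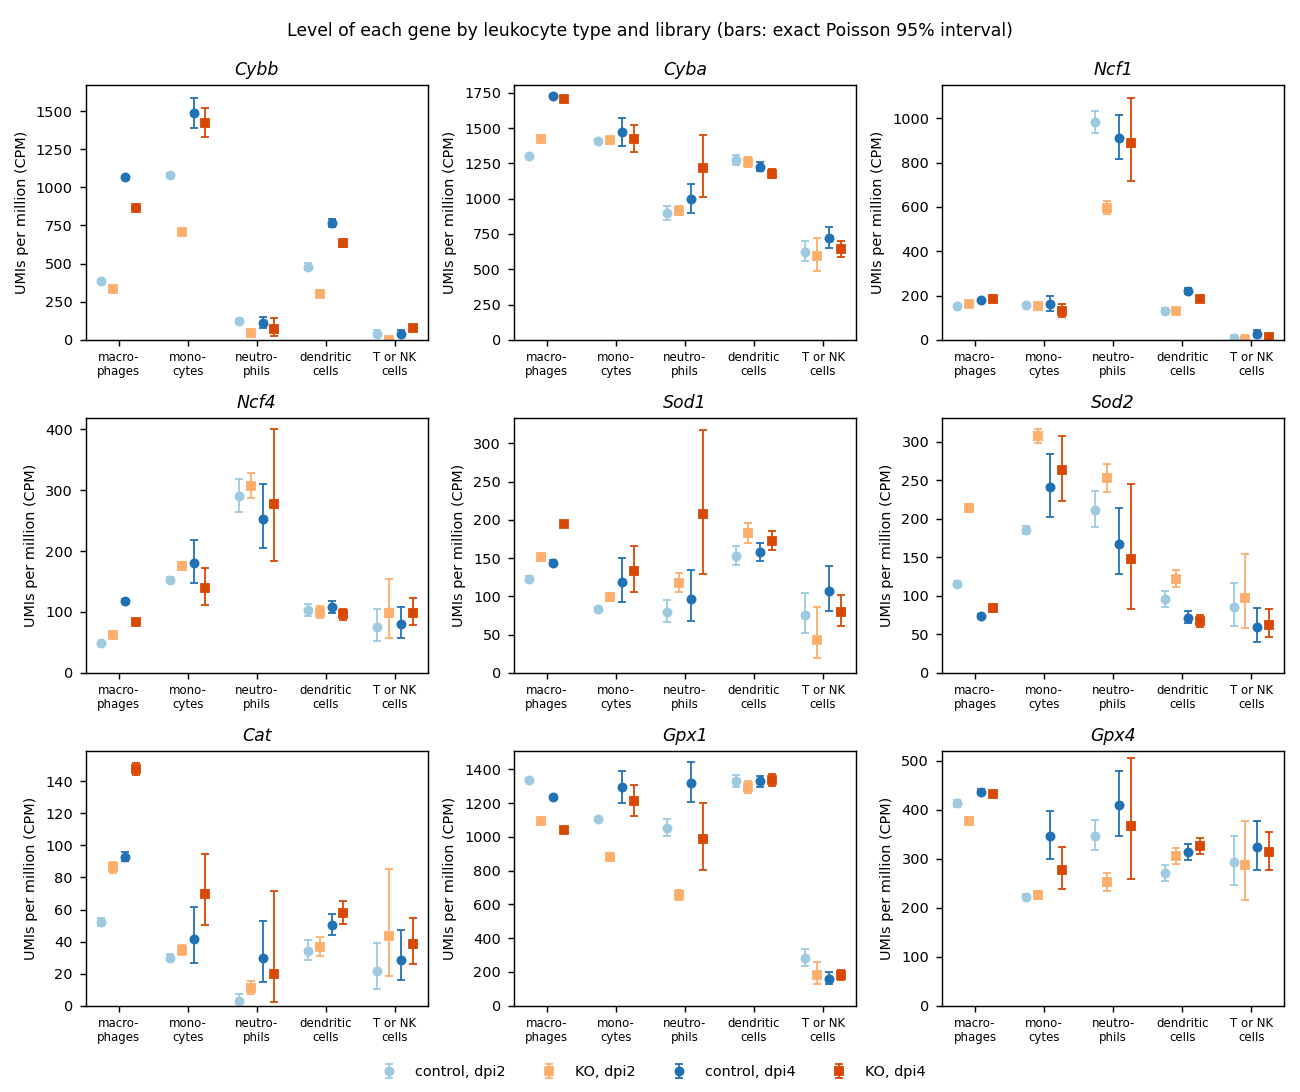
Level of each of the 9 genes (1 panel per gene) in 5 leukocyte types (horizontal axis) and 4 libraries (colours and symbols), in CPM on a linear axis from 0; bars are exact Poisson 95% intervals. *Cybb* is highest in monocytes, *Ncf1* and *Ncf4* in neutrophils, and *Cat* and *Gpx4* in macrophages in all 4 libraries, and the long bars belong to the types with few cells.

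The panels of levels show how close the 4 libraries lay for a given gene and type compared with the distance between types: for *Ncf1* the lowest neutrophil value, 597 CPM, was above the highest value of the other 4 types drawn, 220 CPM, and for *Cybb* the lowest monocyte value, 707 CPM, was below the macrophage values at dpi4, 1067 and 866 CPM.

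The question put to the control and KO libraries was how each type differed between them at each time. These libraries also differed in *Lyz2* RNA, as given above. What part *Bach1* or *Lyz2* had in a ratio was not tested. A gene was counted as past the size rule where KO and control differed by 1.5-fold or more either way, with an interval that did not include 1 and no fewer than 50 UMIs of the gene in both libraries together. Passing it is a statement on a pair of libraries and not a test of genotype.

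In macrophages, the KO libraries had more *Cat* at both times, more *Sod2* at dpi2, and slightly more *Sod1* and less *Cybb* and *Gpx1* at both times without passing the rule. At dpi2, 2 of 9 members passed, both higher in KO, beside 10.5% of the 10948 genes with enough counts (5.31% higher). At dpi4, 1 of 9 passed, beside 7.91% of 11801 genes (3.52% higher). The median log2 ratio of the members was 0.13 at dpi2 and -0.01 at dpi4, and that of all genes was -0.01 and 0.02.

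*Cat* in macrophages was 1.65-fold higher in KO at dpi2 (interval 1.55 to 1.75), from 86.2 against 52.3 CPM, and 1.58-fold higher at dpi4 (1.53 to 1.65), from 147 against 93.0 CPM. The KO library was above its control at each time, and KO dpi2 was just below control dpi4. After thinning to 2000 UMIs, which left out 29 to 76 macrophages per library, *Cat* was found in 9.86%, 13.9%, 15.3% and 23.4% of macrophages, so that the order of the libraries stayed the same. Without thinning the shares were 54.5%, 70.7%, 66.5% and 73.3%, at median depths of 17896, 25981, 16022 and 14972 UMIs. The thinned shares of *Cat* in T or NK cells were 5.0%, 5.56%, 5.48% and 10.2%.

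*Sod2* in macrophages was 1.85-fold higher in KO at dpi2 (1.78 to 1.93), from 214 against 116 CPM. At dpi4 the levels were 84.2 in KO and 74.1 CPM in control, a ratio of 1.14 (1.08 to 1.19). *Sod1* was 1.23-fold (1.18 to 1.28) and 1.35-fold (1.31 to 1.39) higher in KO at dpi2 and dpi4, under the fold of the rule but with intervals that left out 1.

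None of the 4 oxidase genes passed the rule by genotype in macrophages. *Cybb* was 0.865-fold (0.842 to 0.888) and 0.812-fold (0.801 to 0.822) in KO at dpi2 and dpi4. *Ncf4* was at 62.5 in KO and 48.3 CPM in control at dpi2, a ratio of 1.29 (1.21 to 1.38), and at 84.3 and 118 CPM at dpi4, a ratio of 0.714 (0.685 to 0.744), so its direction turned with time. *Cyba* and *Ncf1* were within 1.09-fold of control at both times. *Gpx1* was 0.820-fold and 0.843-fold in KO, and *Gpx4* 0.911-fold and 0.991-fold.

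**Figure D2:**
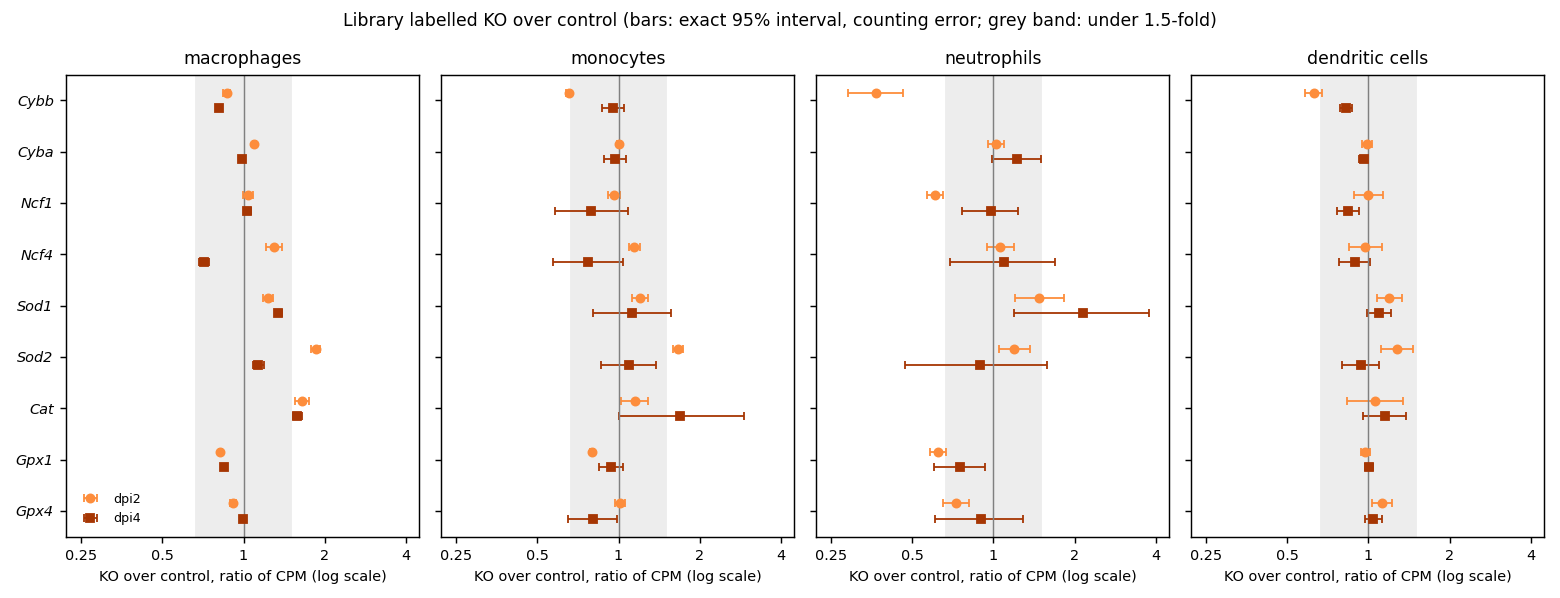
Ratio of CPM in the library labelled KO over control (horizontal axis, log scale) for each gene in macrophages, monocytes, neutrophils and dendritic cells; circles are dpi2 and squares dpi4, bars are exact 95% intervals from counting error, the grey band holds ratios under 1.5-fold, and pairs with under 50 UMIs are not drawn. *Cat* in macrophages sits beyond the band on the high side at both times (1.65 and 1.58), and *Cybb* sits below 1 in all 4 types at dpi2 (0.365 to 0.865).

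The macrophage clusters were mixed in different shares in the libraries. At dpi2 the cluster led by *Pdpn*, *Spp1* and *Hmga2* was 63.2% of control and 17.0% of KO macrophages. At dpi4 the cluster led by *Tmem176b*, *Hpgd* and *Cx3cr1* was 28.4% of control and 12.4% of KO, and the one led by *Il18bp*, *Slc40a1* and *Fbxo32* was 14.6% and 23.9%. The *Il18bp* cluster had the most *Cat* of the macrophage clusters at dpi4, at 121 CPM in control and 186 in KO. With the clusters weighted to the same mix in the pair of libraries, the *Cat* ratio was 1.34 at dpi2 and 1.44 at dpi4 and that of *Sod2* at dpi2 was 1.44, all under 1.5, so no member passed the rule in macrophages at either time. *Cat* at dpi4 was also just under the fold with every cell weighted equally.

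Within single clusters the direction was mostly the same. *Cat* was higher in KO in 3 of 4 macrophage clusters at dpi2, with ratios from 0.783 to 1.57, and in 7 of 8 at dpi4, from 0.772 to 1.74. The exception at dpi2 was the shallow cluster led by *Lars2*, *Lgals1* and *Pf4*, with 13 *Cat* UMIs in all, and at dpi4 the *Pdpn* cluster, whose ratio of 0.772 had an interval below 1 (0.610 to 0.977). *Sod2* was higher in KO in 4 of 4 clusters at dpi2 (1.11 to 2.14, all intervals above 1) and in 7 of 8 at dpi4 (0.592 to 1.70). *Sod1* was higher in 4 of 4 (1.17 to 1.57) and 8 of 8 (1.05 to 1.48). *Cybb* was lower in 4 of 4 (0.639 to 0.917) and 7 of 8 (0.737 to 1.02), and *Gpx1* in 4 of 4 (0.692 to 0.941) and 7 of 8 (0.722 to 1.06). *Ncf4* at dpi2, the ratio that was above 1 for macrophages as a whole, was higher in 2 of 4 clusters, with every interval including 1, and at dpi4 it was lower in 7 of 8 (0.618 to 1.04).

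**Figure D3:**
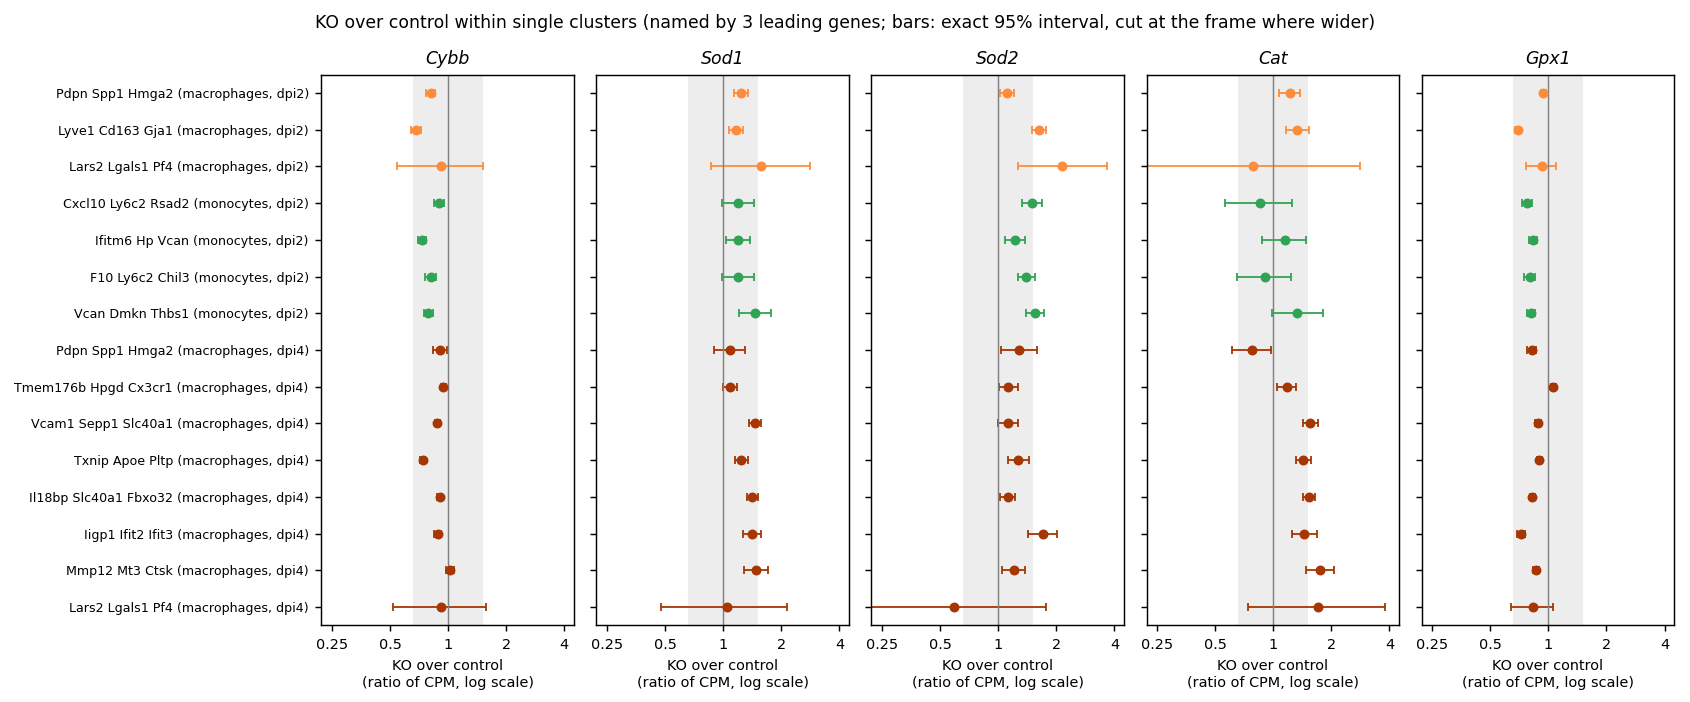
Ratio of CPM in KO over control (horizontal axes, log scale) within single clusters, named by 3 leading genes (rows; 1 macrophage cluster at dpi2 is left out), for *Cybb*, *Sod1*, *Sod2*, *Cat* and *Gpx1* (panels); colours mark macrophages at dpi2, monocytes at dpi2 and macrophages at dpi4, bars are exact 95% intervals and the grey band holds ratios under 1.5-fold. *Sod1* is above 1 in every row, and *Cybb* and *Gpx1* are below 1 in all rows but 1 each.

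Marker RNA of other types moved with genotype in macrophages too. The 8 neutrophil markers summed to 105 CPM in control and 260 in KO at dpi2, and to 100.5 and 77.7 at dpi4, and the 7 monocyte markers to 1374 and 1576 and to 710 and 641. *Ly6g*, a defining neutrophil marker, was at 0 in 3 of the 4 libraries. The part of these markers in the ratios was not tested.

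The rows of the plot of single clusters share a library per time and genotype, so they are not independent repeats of the genotype difference.

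In monocytes at dpi2, KO cells had less *Cybb* and more *Sod2*. *Cybb* was at 707 CPM in KO and 1083 in control, a ratio of 0.653 (0.638 to 0.668), and *Sod2* was at 307 and 185 CPM, a ratio of 1.66 (1.59 to 1.73). These were the 2 of 9 members past the rule, beside 11.8% of 10020 genes. *Sod1* was 1.20-fold (1.12 to 1.28) and *Gpx1* 0.797-fold (0.780 to 0.814) in KO, and *Cyba*, *Ncf1* and *Gpx4* had intervals that included 1. The median log2 ratio was 0.02 for the members and -0.01 for all genes.

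The monocyte mix also differed, with the cluster led by *Vcan*, *Dmkn* and *Thbs1* at 6.67% of control and 61.4% of KO monocytes and the one led by *Cxcl10*, *Ly6c2* and *Rsad2* at 36.6% and 9.81%. In both libraries the *Vcan* cluster was lower in *Cybb* than the *Cxcl10* cluster, at 760 against 1134 CPM in control and 599 against 1017 in KO. With clusters at the same mix the ratio of *Cybb* was 0.80 and that of *Sod2* 1.44, and neither passed. In these monocytes the 11 macrophage markers summed to 4047 CPM in control and 5027 in KO, the 8 neutrophil markers to 219 and 426 and the 7 monocyte markers to 10191 and 8173, and their part in the ratios was not tested. Within the 4 clusters *Cybb* was lower in KO in 4 (0.734 to 0.897) and *Sod2* higher in 4 (1.22 to 1.55), each with intervals that left out 1. At dpi4, from 54 and 68 cells, *Cat* alone passed the rule, at 69.9 CPM in KO and 41.3 in control, a ratio of 1.69 from 42 and 24 UMIs whose interval ran from 1.0 to 2.92, beside 9.90% of 3456 genes. In the larger monocyte class of dpi4, with each library clustered by itself, its ratio was 1.18 (1.07 to 1.29) and no member passed.

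In neutrophils at dpi2, *Cybb*, *Ncf1* and *Gpx1* were lower in KO and passed the rule, 3 of the 8 members with enough counts, beside 26.1% of 5778 genes (21.3% lower). *Cybb* was at 44.0 CPM in KO and 121 in control, a ratio of 0.365 (0.289 to 0.460). *Ncf1* was at 597 and 984 CPM, a ratio of 0.607 (0.566 to 0.651), and *Gpx1* at 658 and 1055, a ratio of 0.624 (0.583 to 0.667). The median log2 ratio of all genes there was -0.30 and that of the members -0.21.

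The neutrophil result depended on the scaling. TMM factors from edgeR moved every neutrophil log2 ratio at dpi2 up by 0.36, and the share of higher genes among those past the rule went from 18.5% to 64.8%. With TMM or median-of-ratios factors, *Cybb* was still past the rule and lower (log2 ratio -1.09 with TMM, against -1.45 in CPM), *Ncf1* and *Gpx1* were not (-0.36 and -0.32), and *Sod1* and *Sod2* passed it as higher (0.93 and 0.62). In CPM, *Sod1* was at 118 in KO and 79.5 in control, a ratio of 1.48 (1.20 to 1.83). *Cat* had 32 and 5 UMIs, too few for the rule.

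A cluster of 605 shallow cells led by *Mirt1*, *Il1f9* and *Irg1* had been left unnamed, although its best score was for neutrophils, and 501 of its cells were in KO dpi2. Counted as neutrophils, it took the cells to 719 in control and 1303 in KO, *Cybb* to 114 and 45.0 CPM, *Ncf1* to 887 and 456 and *Cat* to 3.35 and 27.6. In that count 7 of 9 members passed the rule at dpi2, beside 30.3% of 6734 genes, with *Sod1*, *Sod2* and *Cat* higher and *Cybb*, *Ncf1*, *Gpx1* and *Gpx4* lower. The neutrophils also held monocyte marker RNA, with all 7 markers found and a sum of 1958 CPM in control and 1192 in KO at dpi2, and the 8 neutrophil markers summed to 52743 and 74353 CPM, the mitochondrial genes to 8031 and 5864 and the 4 eosinophil markers to 169 and 77.7 (*Prg2* and *Il5ra* at 0 in both). The part of these shifts in the ratios was not tested. At dpi4, with 36 KO cells, *Sod1* was at 208 CPM in KO and 96.8 in control, a ratio of 2.14 (1.19 to 3.77) from 21 and 36 UMIs, and it was the 1 of 7 members past the rule, beside 12.9% of 1615 genes. The macrophage markers in neutrophils were at 763, 759, 3656 and 2928 CPM, and their part in the dpi4 values was not tested either.

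In dendritic cells *Cybb* was the 1 member past the rule at dpi2, beside 9.16% of 8068 genes, at 301 CPM in KO and 480 in control, a ratio of 0.627 (0.583 to 0.674). The cluster led by *Cd209a*, at 353 and 573 CPM, was 81.2% and 82.3% of the dendritic cells, and its ratio of 0.615 was the lowest of 3 clusters. It was the 1 cluster with an interval below 1. The cluster led by *Xcr1*, at 15.1 CPM in control, was also lower in KO, with an interval that included 1. The cluster led by *Ccr7*, *Fscn1* and *Ccl5* was at 170 CPM in KO and 150 in control, with an interval that included 1. At dpi4 no member passed, beside 5.37% of 8534 genes, and *Cybb* was 0.826-fold (0.785 to 0.868) in KO. The monocyte markers in dendritic cells summed to 3090 CPM in control dpi2, 1998 in KO dpi2, 1343 in control dpi4 and 1413 in KO dpi4. In the same order, the neutrophil markers there summed to 118, 321, 105 and 14.8 CPM and the macrophage markers to 772, 1251, 4625 and 2201. The part of these markers in the *Cybb* ratio was not tested.

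T or NK cells gave counts too small for 4 of the 9 members at dpi2. There *Gpx1*, at 184 CPM in KO and 283 in control, was the 1 of 5 past the rule, with a ratio of 0.652 (0.433 to 0.957) beside 11.3% of 2026 genes. At dpi4 *Cybb* was the 1 of 7, with a ratio of 1.90 (1.14 to 3.28) beside 8.29% of 3740 genes. The direction of *Gpx1* turned without doublet removal, and that of *Cybb* also turned with other limits on mitochondrial UMIs, so neither is given as a difference of these cells.

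The comparison of dpi4 with dpi2 asks how each type changed as the injury was repaired. In macrophages, from dpi2 to dpi4, *Cybb*, *Ncf4* and *Cat* were higher and *Sod2* lower in control, 4 of 9 members, beside 37.1% of 11594 genes past the rule. In KO *Cybb* and *Cat* were higher and *Sod2* lower, 3 of 9, beside 33.1% of 11292 genes. The shares of members past the rule were thus near those of all genes. The median log2 ratio of the members was 0.23 in control and 0.26 in KO, and that of all genes was -0.07 and -0.06.

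*Cybb* went from 387 to 1067 CPM in control, a ratio of 2.76 (2.71 to 2.81), and from 335 to 866 in KO, a ratio of 2.59 (2.53 to 2.65). *Cat* went from 52.3 to 93.0 CPM in control, 1.78-fold (1.68 to 1.88), and from 86.2 to 147 in KO, 1.71-fold (1.63 to 1.79). *Sod2* went from 116 to 74.1 CPM in control, a ratio of 0.641 (0.613 to 0.670), and from 214 to 84.2 in KO, a ratio of 0.393 (0.377 to 0.410). The higher *Sod2* of KO macrophages at dpi2 was thus followed by levels within 1.14-fold of each other at dpi4. *Ncf4* went from 48.3 to 118 CPM in control, 2.44-fold (2.32 to 2.58), and from 62.5 to 84.3 in KO, 1.35-fold (1.27 to 1.43). *Cyba* was 1.33-fold and 1.20-fold higher at dpi4, and *Gpx1*, *Gpx4*, *Ncf1* and *Sod1* stayed within 1.28-fold in both genotypes. With cells under 5% mitochondrial UMIs, *Sod2* in control no longer passed the rule (ratio 0.719) and *Cyba* did (1.53).

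Macrophages of dpi2 and dpi4 lay mostly in different clusters. The *Pdpn* cluster held 1162 control cells at dpi2 and 71 at dpi4, and the *Tmem176b* cluster 19 and 833. Weighting clusters to the same mix could use only those with 20 or more cells at both times, 3 of 10 in control with 71.2% of the dpi2 and 5.46% of the dpi4 macrophages, and 4 of 10 in KO with 25.1% and 20.01%. With that weighting *Cybb* was 1.59-fold higher at dpi4 in control and 1.68-fold in KO, and *Ncf4* 1.52-fold in control. *Cat* was 1.80-fold higher in control and 1.40-fold in KO, under the fold of the rule, and *Sod2* was 0.821-fold in control, no longer past it, and 0.495-fold in KO. The direction of *Ncf1* in control (0.879), of *Sod1* in KO (0.955) and of *Gpx1* in both (1.12 and 1.08) turned.

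**Figure D4:**
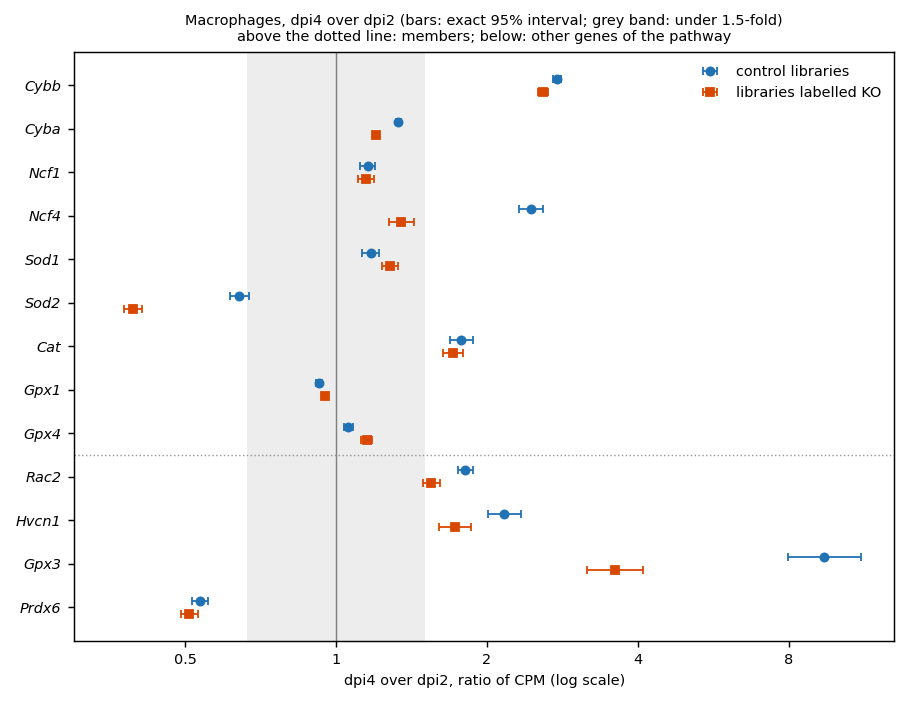
Ratio of macrophage CPM at dpi4 over dpi2 (horizontal axis, log scale) for the 9 members and, below the dotted line, 4 other genes of the pathway; circles are control and squares KO libraries, bars are exact 95% intervals and the grey band holds ratios under 1.5-fold. *Cybb* and *Cat* lie to the right and *Sod2* to the left of the band in both genotypes, and *Gpx3* is farthest to the right in control (9.40) and in KO (3.60).

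The plot of time ratios shows other genes of the pathway beside the members. Of the 32 other genes listed, 17 had enough counts in control macrophages, and 6 were higher and 1 lower at dpi4, beside the 37.1% of all genes past the rule. In KO 16 had enough counts, and 5 were higher and 1 lower, beside 33.1%, so these shares were near those of all genes. Of the genes past the rule in both genotypes, *Rac2*, the small GTPase of the oxidase, went from 133 to 242 CPM in control and from 130 to 201 in KO, and *Hvcn1*, the proton channel that balances its charge, from 26.7 to 57.9 and from 35.2 to 60.8. *Gpx3*, a secreted glutathione peroxidase, went from 4.49 to 42.2 CPM in control and from 9.96 to 35.9 in KO. In the same macrophages the 6 fibroblast markers went from 3.51 to 35.7 CPM in control and from 2.76 to 17.7 in KO, and the 8 muscle markers from 6.78 to 54.2 and from 5.98 to 32.0 (*Myog* and *Pax7* at 0 in both libraries of dpi2), and their part in the time ratios was not tested. *Prdx6*, a peroxiredoxin, went from 183 to 97.7 and from 215 to 109 CPM. *Noxo1* was also higher in both genotypes, and *Mpo* in control, at no more than 1.45 CPM each.

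By genotype, 0 to 3 of the other pathway genes passed the rule in each comparison. In macrophages at dpi2, 15 had enough counts, beside the 10.5% of all genes past the rule, and *Gpx3* was higher in KO, with a ratio of 2.22 (1.82 to 2.71), and *Gpx7* lower, at 0.734 against 1.27 CPM. At dpi4, 18 had enough counts, beside 7.91% of all genes, and *Gpx7* and *Mpo* were lower, at 1.02 and 0.838 CPM in KO. In monocytes at dpi2 none of 14 passed the rule, beside 11.8% of all genes, and in dendritic cells none of 13, beside 9.16%. In dendritic cells at dpi4 *Hvcn1* was lower in KO, beside 5.37% of all genes. In neutrophils at dpi2 *Prdx1*, a cytosolic peroxiredoxin, was at 275 CPM in KO and 164 in control, and *Prdx2* at 12.0 and 31.3, 2 of 11 beside 26.1% of all genes. At dpi4 *Prdx1* and *Prdx6* were among 3 of 7 higher in KO neutrophils, beside 12.9% of all genes, with 36 KO cells behind them.

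In the other types 0 to 3 members passed the rule with time. In monocytes *Gpx4* was 1.55-fold higher at dpi4 in control (1.34 to 1.79), beside 12.3% of 9579 genes, and *Cybb* and *Cat* were 2.01-fold (1.87 to 2.16) and 2.02-fold (1.44 to 2.78) higher in KO, beside 16.4% of 8682 genes. *Gpx4* in control did not reach the fold with TMM or median-of-ratios factors. With each library clustered by itself these 3 still passed, and in both genotypes *Sod1* (1.73-fold and 1.72-fold) and *Cat* (2.58-fold and 2.66-fold) were higher and *Sod2* lower (0.436 and 0.306). No share of all genes is given for that clustering, so these members are not set apart from other genes. The macrophage markers in monocytes went from 4047 to 13730 CPM in control and from 5027 to 9035 in KO, and their part was not tested. In dendritic cells *Cybb* was 1.60-fold and *Ncf1* 1.67-fold higher at dpi4 in control, beside 20.5% of 8275 genes. In KO dendritic cells *Cybb* was 2.10-fold and *Cat* 1.59-fold higher and *Sod2* 0.550-fold, beside 18.6% of 8414 genes. The macrophage markers in dendritic cells (where *Cybb* in control did not reach the fold with every cell weighted equally, nor *Cat* in KO with each library clustered by itself) went from 772 to 4625 CPM in control and from 1251 to 2201 in KO, and their part was not tested either. In control neutrophils no member passed, beside 30.1% of 4345 genes, but *Sod2* was past the rule and lower with TMM (0.598) or median-of-ratios factors (0.631), and *Ncf4* with TMM (0.661). In KO neutrophils *Sod1* and *Gpx1* were higher and *Sod2* lower, beside 23.0% of 4723 genes, but with TMM or median-of-ratios factors *Gpx1* changed direction, *Sod1* was at 1.05-fold and 1.12-fold and did not pass, *Ncf4* passed as lower (0.537 and 0.569) and *Sod2* was still lower (0.349 and 0.371). With each library clustered by itself *Sod1*, *Gpx1* and *Sod2* did not reach the fold. In those KO neutrophils mitochondrial genes went from 5864 to 20918 CPM and the 8 neutrophil markers from 74353 to 35111, and the part of these shifts was not tested. In T or NK cells *Gpx1* was lower in control (0.568), beside 13.6% of 2988 genes, a direction that also turned under other cell filters, and *Cybb* went from 0 to 61 UMIs in KO, beside 12.2% of 2907 genes.

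Groups of a cell type in a library with at least 30 cells numbered 25. They were the 5 leukocyte types and cells named from muscle, endothelial or fibroblast markers. The muscle-named cells numbered 395 in control dpi4 and 79 in KO dpi4, and they held *Cybb* at 869 and 579 CPM. Across the 25 groups, 11760 genes were ranked by the Pearson correlation of their levels with each member, on a scale of log2(CPM + 10). The groups share libraries and cells of like types, so r is given as a description only. *Cybb* was most like *Pld4* (r = 0.954), *Aif1* (0.953) and *Slc29a3* (0.948), and *Cyba* like *Nckap1l* (0.939), *Edem1* (0.901) and *Cyth4* (0.899). *Ncf1* was most like *Nfam1* (0.971), *Ptafr* (0.949) and *Tctex1d2* (0.946), and *Ncf4* like *Tyrobp* (0.941), *Pim1* (0.938) and *Apbb1ip* (0.934). *Card19* (0.898) and *F10* (0.893) were among the 3 genes most like *Sod2*. *Cat* was most like *St6gal1* (0.900), *Aco1* (0.884) and *Vegfb* (0.870), and *Gpx1* like *5031439G07Rik* (0.962), *Clec12a* (0.932) and *Nrros* (0.926). *Sod1* and *Gpx4* had lower best values, with *Atpif1* (0.838), *Abca3* (0.799) and *Setd3* (0.795) for *Sod1* and *Serpinb6a* (0.832), *Mrpl34* (0.812) and *Itfg1* (0.810) for *Gpx4*. No member was among the 3 genes most like another.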

How the data were processed

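The deposited tables held raw UMI counts per gene and barcode, which per the labels the authors made with Cell Ranger 6.1.2 and mm10, with no normalization. The labels name a 3′ v2 kit and the study's methods v3.1. The study filtered with miQC and scDblFinder; here barcodes needed 500 genes and under 10% mitochondrial UMIs, and Scrublet's top scores were removed at 0.8% per 1000 cells. After scaling to 10000 UMIs per cell, 2000 variable genes gave 30 principal components, 15 neighbours and Leiden clusters at resolution 1 (Python 3.11.15, scanpy 1.11.5, leidenalg 0.10.2). Clusters were named from 98 markers; a cluster stayed unnamed with under 3 markers detected, with more markers of another class in its top 10 genes, with a low marker score, or with a median depth under 1/3 of its libraries' and no own marker leading. UMIs were summed per type and library as CPM, with exact Poisson, conditional binomial and Clopper-Pearson intervals (scipy 1.17.1). Cells are not replicates, and no test was run. The calculation of the size rule was checked on simulated Poisson counts, the model that the intervals assume. Those counts held no spread between animals or cells, so they do not show how the rule performs in unreplicated libraries. Named genes are the 9 members, 32 other pathway genes where they passed the rule, *Bach1* and *Lyz2*, and the 3 genes most like each member; clusters are named by their leading genes. The members and lists were chosen with earlier results of these data known. Alternatives covered scaling (TMM in edgeR 4.0.16 under R 4.3.3, median-of-ratios, a total without mitochondrial and abundant genes), cell filters, doublets, clustering, cluster mix, the fold and the minimum count. Promoter sequences are RefSeq's (GRCm38.p6; 8 of 9 members matched). A few pathway and most-alike genes and 1 macrophage cluster are not reported here.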

Additional observations from a re-analysis of the deposited data

Results flagged for a closer look

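In macrophages, 2 members had a KO to control ratio above 1 at dpi2 and below 1 at dpi4, with intervals that left out 1 at each time. *Ncf4* had a log2 ratio of 0.37 at dpi2 and -0.49 at dpi4, a difference of -0.86. *Cyba* had log2 ratios of 0.13 and -0.02, a difference of -0.15. The *Cyba* ratio at dpi4 was above 0 on the log2 scale with the total without mitochondrial and abundant genes (0.017) and at Leiden resolution 2, so that its turn was not seen there. With 1 library per group these differences between time points were not tested. The *Ncf4* ratio at dpi2 was 0.958 with the macrophage clusters weighted to the same mix, so that its turn in direction was not seen under that weighting.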

How the results depend on the processing

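Of the counts of members past the size rule, 84 of 99 alternative values were within 1.5 times the count reported, and of 2196 single-gene ratios and shares of cells under alternatives 1607 stayed within the interval of the value reported. Of 1836 log2 ratios among them, 9 that had passed the rule changed sign, as did 137 that had not, *Ncf1* and *Ncf4* in macrophages by genotype at dpi2 with clusters at the same mix among them. At a 2-fold rule the counts were 0 in macrophages at dpi2 and at dpi4, 0 in monocytes and 1 in neutrophils at dpi2, and 2 for time in control macrophages. No share of all genes past the rule is given beside this or the other counts of this paragraph. They therefore describe no trait of the members. With clusters at the same mix they were 0 in macrophages at each time and 0 in monocytes at dpi2; neutrophils were 1 cluster, so no such value exists. With each library clustered by itself, 2 members passed in macrophages at dpi4 (*Ncf4* joined as lower) and 2 in neutrophils at dpi4. Without doublet removal, 1 passed in monocytes at dpi2 (*Cybb* did not), 2 in neutrophils at dpi2 (*Ncf1* did not) and 2 in neutrophils at dpi4, where a minimum of 200 UMIs left 0. In neutrophils at dpi2 *Sod1* joined as higher with mitochondrial limits of 5% or 20%. It also joined with each library clustered by itself and at Leiden resolution 2. The unnamed shallow cluster, added to the neutrophils after seeing the data, gave 7 at dpi2 and 2 at dpi4. Counts of 3 in neutrophils at dpi2 hid a change of members under TMM and median-of-ratios, with 1 of 3 shared, and a count of 4 for time in control macrophages hid one under 5% mitochondrial UMIs, with 3 of 4 shared. At dpi4 the share of higher genes in neutrophils went from 36.5% to 50.7% with the total without mitochondrial and abundant genes, and at dpi2 it was 60.4% with median-of-ratios and 37.5% with that total. Directions of ratios past the rule reversed for *Gpx1* in neutrophils over time in KO (log2 ratio -0.16 with TMM, -0.075 with median-of-ratios), for *Gpx1* in T or NK cells by genotype at dpi2 (0.21 without doublet removal) and over time in control (0.15 and 0.017 at 5% and 20% mitochondrial UMIs, 0.23 without doublet removal), and for *Cybb* in T or NK cells by genotype at dpi4 (-0.70, -0.52 and -0.81 under the same 3 settings). The cause was not tested. No paired analysis was possible because each group had 1 library and so the groups share no second replicate number. Depth limited *Cat* in neutrophils, *Cybb* there by genotype at dpi4 and 2 to 4 of 9 members in T or NK cells.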

Other observations

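Cells in clusters named from muscle markers, which CD45 enrichment should have removed, held *Cybb* at 869 CPM in control dpi4 (395 cells) and 579 CPM in KO dpi4 (79 cells).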
